A study of Mus musculus with 16 samples.

Results

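The 10 genes described here are *Hdac4*, *Hdac5*, *Hdac9*, *Dach1*, *Dach2*, *Myog*, *Myod1*, *Myf6*, *Mef2c* and *Runx1*, members of the regulatory axis through which skeletal muscle reads the activity of its motor nerve. They were taken by symbol from the gene count tables, which hold 24421 genes, and all 10 were present and passed the filter on low counts in every comparison. The set was chosen by the known function of its genes together with their measured genotype differences in these same libraries. The genotype values of its members are therefore given as a description without p-values. Calls of members between genotypes are counted only in the closing section on processing, where they support nothing about the choice.

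The study sequenced the RNA of the gastrocnemius (Gas), a muscle of mostly fast-twitch fibers, and the soleus (Sol), a muscle rich in slow-twitch fibers, in 16 libraries. There were 3 libraries of WT Gas, 5 of LSD1-mKO Gas, 3 of WT Sol and 5 of LSD1-mKO Sol. All came from male mice, labelled C57BL/6, that had received tamoxifen at 75 mg/kg for 5 days from 8 weeks of age and dexamethasone, a synthetic glucocorticoid that causes wasting of fast muscle, at 1 mg/kg for 7 days, so that no group represents untreated muscle. LSD1-mKO mice were homozygous for a floxed *Lsd1* (*Kdm1a*) allele, which encodes a histone lysine demethylase, and carried CreERT2 driven by the human ACTA1 promoter, which is active in differentiating and differentiated muscle cells. WT mice carried the floxed allele without the recombinase, so the loss of LSD1 and the presence of the transgene cannot be told apart, and cells other than muscle fibers should have kept their LSD1. The labels do not state that each library came from a separate animal, so p-values here measure the spread between libraries.

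In innervated muscle, class IIa histone deacetylases such as HDAC4 and HDAC5 hold MEF2-dependent transcription in check and move between nucleus and cytoplasm under the control of calcium-activated kinases. When the nerve is lost, HDAC4 accumulates and represses *Dach2*, which encodes a corepressor of the Dachshund family that in turn restrains *Myog*. The resulting myogenin activates the genes of the acetylcholine receptor subunits and the muscle ubiquitin ligases *Trim63* and *Fbxo32*, while *Runx1*, which is also strongly induced by denervation, limits wasting of the fibers.

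The libraries held 10130415 to 24576377 reads assigned to genes. *Kdm1a* lay between 37.8 and 44.2 CPM (read counts scaled to library size) in WT Gas against 11.9 to 17.9 in LSD1-mKO Gas, and between 33.5 and 34.5 in WT Sol against 9.12 to 12.8 in LSD1-mKO Sol. Every LSD1-mKO library was thus below every WT library of its muscle. The marker genes of slow fibers summed to 577 to 1830 CPM in Gas and 15696 to 20374 CPM in Sol, and those of fast fibers to 77040 to 160332 CPM in Gas and 18537 to 35803 CPM in Sol, so the muscle labels fitted their markers. WT Gas 3, LSD1-mKO Gas 5 and WT Sol 2 stood apart by a mean ribosomal protein gene level more than 0.4 log2 units above the median of their muscle. Here and below a library is named by its group and replicate number.

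The promoters of *Dach2* and *Myog* are shown because these 2 genes carried the largest genotype differences among the 10. The sequences are RefSeq windows on GRCm38.p6, plus strand, from 250 bases before to 50 bases after a transcript start. Capitals mark matches to CANNTG, the E-box read by myogenic factors, and to CTANNNNTA. The latter is looser than the MEF2 motif, whose bases in place of NNNN are all A or T. Both were searched on both strands, with no overlap between matches in these windows.

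Dach2 first start, chrX:113297260-113297559: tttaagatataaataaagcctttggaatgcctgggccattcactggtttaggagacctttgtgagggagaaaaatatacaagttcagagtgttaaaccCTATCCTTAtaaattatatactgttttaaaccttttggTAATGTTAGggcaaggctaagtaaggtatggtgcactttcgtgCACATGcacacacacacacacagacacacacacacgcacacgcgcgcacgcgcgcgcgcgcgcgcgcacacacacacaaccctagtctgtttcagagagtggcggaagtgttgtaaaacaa

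Dach2 second start, chrX:113298006-113298305: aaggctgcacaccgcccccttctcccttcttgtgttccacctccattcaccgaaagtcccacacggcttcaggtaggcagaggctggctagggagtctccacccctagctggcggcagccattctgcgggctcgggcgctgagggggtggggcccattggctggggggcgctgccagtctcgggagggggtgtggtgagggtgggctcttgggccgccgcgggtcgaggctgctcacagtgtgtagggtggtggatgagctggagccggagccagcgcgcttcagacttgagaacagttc

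Myog start, chr1:134289754-134290053: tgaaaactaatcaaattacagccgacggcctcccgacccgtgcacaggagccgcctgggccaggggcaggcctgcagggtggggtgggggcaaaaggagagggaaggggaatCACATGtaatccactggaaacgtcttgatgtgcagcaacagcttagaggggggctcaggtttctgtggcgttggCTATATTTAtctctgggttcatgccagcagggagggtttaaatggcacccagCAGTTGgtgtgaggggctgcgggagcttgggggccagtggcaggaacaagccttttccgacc

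In the window of the first *Dach2* start, CACATG began at position -71, CTATCCTTA at -152 and TAATGTTAG, a match on the opposite strand, at -114, counted from the transcript start. The window of the second *Dach2* start held no match. In the *Myog* window CACATG began at -138, CAGTTG at -12 and CTATATTTA at -64. Of the CTANNNNTA matches in these windows, only CTATATTTA had A or T alone at the NNNN positions. Of 32851 mouse promoter windows of 300 bases, 72.3% held at least 1 CANNTG and 21% at least 1 CTANNNNTA. A match describes the letters and not a bound site. On GRCm38 the *Dach2* gene spans chrX:113297510-113836386 and *Myog* spans chr1:134289989-134292548, both on the plus strand.

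*Dach2* was the member that separated the genotypes. Its level in LSD1-mKO muscle was 15.03-fold lower than in WT in Gas and 13.4-fold lower in Sol, and no LSD1-mKO library reached the lowest WT library of its muscle. *Myog* averaged 3.44-fold higher in LSD1-mKO Gas and 3.19-fold higher in LSD1-mKO Sol, but with overlapping groups in both muscles. *Runx1* averaged 2.69-fold higher in Gas and 1.51-fold higher in Sol, again with overlap. The class IIa deacetylases, *Dach1*, *Myod1*, *Myf6* and *Mef2c* differed by less than 1.8-fold between genotypes. *Dach2* was the 1 member whose groups did not overlap, and was lower, as in 2.53% of all genes in Gas and 4.59% in Sol. These values entered the choice of the genes, so no p-value is given for them.

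**Figure D1:**
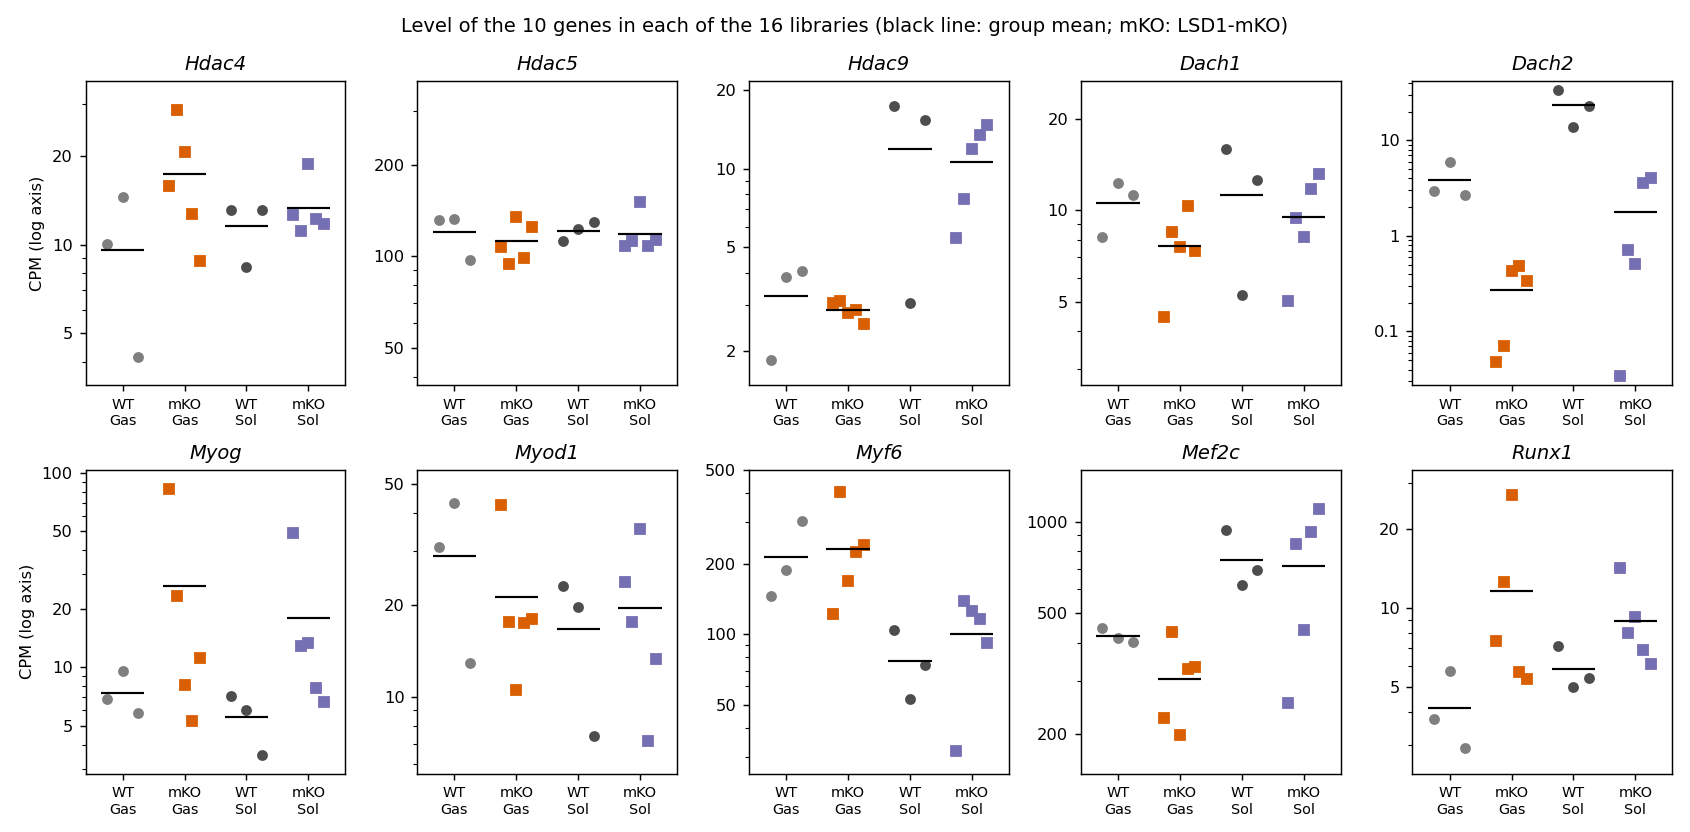
Level of each of the 10 genes in CPM on a log axis in the 16 libraries, in 4 groups (WT Gas, LSD1-mKO Gas, WT Sol, LSD1-mKO Sol). Each point is 1 library and the horizontal line is the group mean. *Dach2* is the only gene whose LSD1-mKO points all lie below the WT points in both muscles, and *Myog* has 1 high LSD1-mKO point in each muscle, at 83.0 CPM in Gas and 48.8 CPM in Sol.

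*Hdac4*, the class IIa deacetylase most closely tied to the denervation response, was read at 10.04, 14.5 and 4.16 CPM in WT Gas replicates 1 to 3. In LSD1-mKO Gas replicates 1 to 5 it was at 15.8, 28.8, 20.7, 12.7 and 8.79 CPM. The highest 3 values were all from LSD1-mKO libraries, but LSD1-mKO Gas 4 and 5 lay within the WT range. The fitted log2 fold change in Gas was 0.81 (SE 0.42), and it was 0.51 without WT Gas 3 and 1.24 without WT Gas 2. In Sol the WT libraries read 13.1, 8.39 and 13.1 CPM and the LSD1-mKO libraries 12.6, 11.1, 18.8, 12.2 and 11.8 CPM. These groups overlapped almost entirely, and the log2 fold change was 0.19 (SE 0.21).

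*Hdac5*, a second class IIa deacetylase that shuttles in response to calcium signals, was the most abundant of the class IIa members per exon length. Levels per length are in RPKM, a read count scaled for library size and the joint length of all annotated exons of the gene. Of the summed RPKM of *Hdac4*, *Hdac5* and *Hdac9*, *Hdac5* made up a mean of 94.4% ± 1.46 (SD, n = 3) in WT Gas and 90.6% ± 4.02 (n = 5) in LSD1-mKO Gas. In Sol its part was 90.0% ± 4.45 (n = 3) in WT and 89.6% ± 1.66 (n = 5) in LSD1-mKO. *Hdac7*, a class IIa gene outside the set, was left out of this sum. The *Hdac5* level ranged from 94.3 to 150 CPM over all 16 libraries. The log2 fold change between genotypes was -0.14 (SE 0.19) in Gas and -0.05 (SE 0.15) in Sol. *Hdac9*, which is produced in a short form that lacks the deacetylase domain and binds MEF2, ranged from 1.86 to 4.06 CPM in WT Gas and from 2.55 to 3.11 CPM in LSD1-mKO Gas. In Sol it ranged from 3.05 to 17.3 CPM in WT and from 5.44 to 14.7 CPM in LSD1-mKO. The genotype log2 fold change was -0.21 (SE 0.29) in Gas and -0.18 (SE 0.45) in Sol, and its sign turned with the omission of WT Gas 3 in the first (0.03) and of WT Sol 1, WT Sol 3 or LSD1-mKO Sol 1 in the second (up to 0.19).

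The WT Gas libraries held 55, 99 and 26 reads of *Dach2*, which is 2.92, 5.94 and 2.70 CPM. The 5 LSD1-mKO Gas libraries held 1, 1, 6, 5 and 6 reads, which is 0.0479, 0.0708, 0.431, 0.481 and 0.340 CPM. The highest of the LSD1-mKO values, in replicate 4, has an exact Poisson 95% interval of 0.156 to 1.12 CPM, whose upper end lies below the lower end of 1.77 CPM in WT Gas 3. Such intervals cover counting error alone. Within LSD1-mKO Gas the lowest pair, replicates 1 and 2, and the highest, replicate 4, had overlapping intervals (up to 0.267, up to 0.394 and from 0.156 CPM). Fitted over the 8 Gas libraries, the log2 fold change was -3.91 (SE 0.55), ranging from -4.16 to -3.45 with any 1 library left out.

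WT Sol held far more *Dach2*, with 33.4, 13.9 and 22.9 CPM in replicates 1 to 3. LSD1-mKO Sol held 0.0344, 0.709, 0.513, 3.58 and 4.06 CPM, from 1, 12, 12, 88 and 78 reads. Replicates 4 and 5 of LSD1-mKO Sol were as high as the WT Gas libraries, and replicate 1 with its single read was the lowest of all 16 libraries. The counting intervals of replicates 4 and 5, 2.87 to 4.41 and 3.21 to 5.06 CPM, lay above those of the other LSD1-mKO Sol libraries, the highest of which ended at 1.24 CPM. Fitted over the 8 Sol libraries, the log2 fold change was -3.74 (SE 0.74), and it ranged from -4.26 to -3.38 with 1 library left out. Without the libraries of high ribosomal protein level it was -4.22 in Gas and -4.00 in Sol.

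*Dach1*, the second Dachshund gene, did not share this pattern. It ranged from 8.13 to 12.3 CPM in WT Gas, 4.46 to 10.3 in LSD1-mKO Gas, 5.27 to 15.9 in WT Sol and 5.02 to 13.1 in LSD1-mKO Sol. The log2 fold change was -0.52 (SE 0.27) in Gas and -0.26 (SE 0.35) in Sol, the latter turning to 0.07 without WT Sol 1. Of the summed RPKM of both Dachshund genes, *Dach2* made up 20.9% ± 5.61 (SD, n = 3) in WT Gas and 2.43% ± 1.61 (n = 5) in LSD1-mKO Gas. In Sol its part was 61.5% ± 4.39 (n = 3) in WT and 9.46% ± 8.48 (n = 5) in LSD1-mKO. *Dach2* was thus the major Dachshund transcript in WT Sol and the minor one in the other 3 groups. In bulk RNA, fewer cells that express a gene and less RNA in each cell cannot be told apart.

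**Figure D2:**
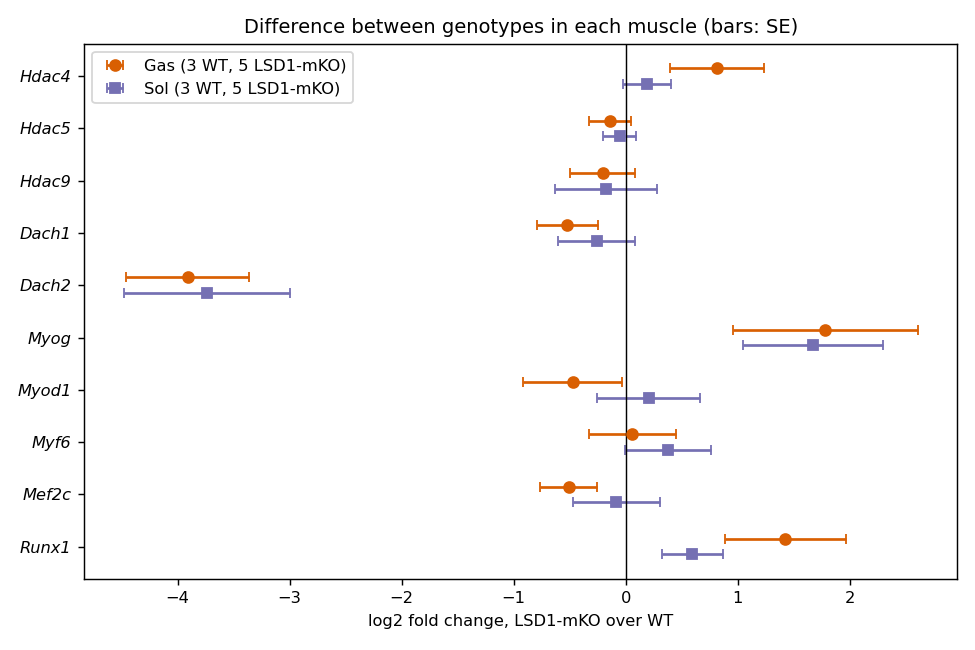
Fitted log2 fold change of LSD1-mKO over WT for the 10 genes in Gas and in Sol, with bars of 1 standard error on either side. *Dach2* lies at -3.91 in Gas and -3.74 in Sol, and the other 9 lie between -0.52 and 1.78.

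*Myog*, which encodes myogenin, a basic helix-loop-helix factor of late muscle differentiation, was read at 6.85, 9.54 and 5.82 CPM in WT Gas and at 83.0, 23.3, 8.05, 5.30 and 11.1 CPM in LSD1-mKO Gas. LSD1-mKO Gas 1, at 83.0 CPM, stood far above its nearest neighbour, replicate 2, and 2 of the 5 LSD1-mKO libraries lay within the WT range or below it. In Sol the WT values were 7.12, 6.03 and 3.54 CPM and the LSD1-mKO values 48.8, 12.9, 13.3, 7.86 and 6.61 CPM. Here too replicate 1 was far above the others, and only replicate 5 lay within the WT range. Between genotypes the log2 fold change was 1.78 (SE 0.83) in Gas and 1.67 (SE 0.62) in Sol. Without replicate 1 of LSD1-mKO it was 0.65 in Gas and 0.87 in Sol.

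The LSD1-mKO libraries stood in opposite orders of *Dach2* and *Myog*. From lowest to highest *Dach2*, the LSD1-mKO Gas replicates were 1, 2, 5, 3 and 4, and from highest to lowest *Myog* they were again 1, 2, 5, 3 and 4. In LSD1-mKO Sol both orders were 1, 3, 2, 4 and 5. In Gas the *Dach2* order rests on 1 to 6 reads a library, replicates 1 and 2 with 1 read each are ordered by library size alone, and the counting intervals of the lowest and highest overlap. Replicates 2 and 3 in Sol were also within counting error of each other. No correlation of *Dach2* with *Myog* was computed. Same-numbered LSD1-mKO libraries of Gas and Sol deviated together over genes (correlations of 0.213 to 0.362), so the orders in the muscles may not be independent. In WT the orders were not opposite: replicate 2 had the most and replicate 3 the least of both genes in Gas, and replicate 1 had the most of both in Sol. In LSD1-mKO Sol the order of *Dach2* was shared by *Dach1* and *Mef2c*, and that of *Myog* by *Runx1*.

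**Figure D3:**
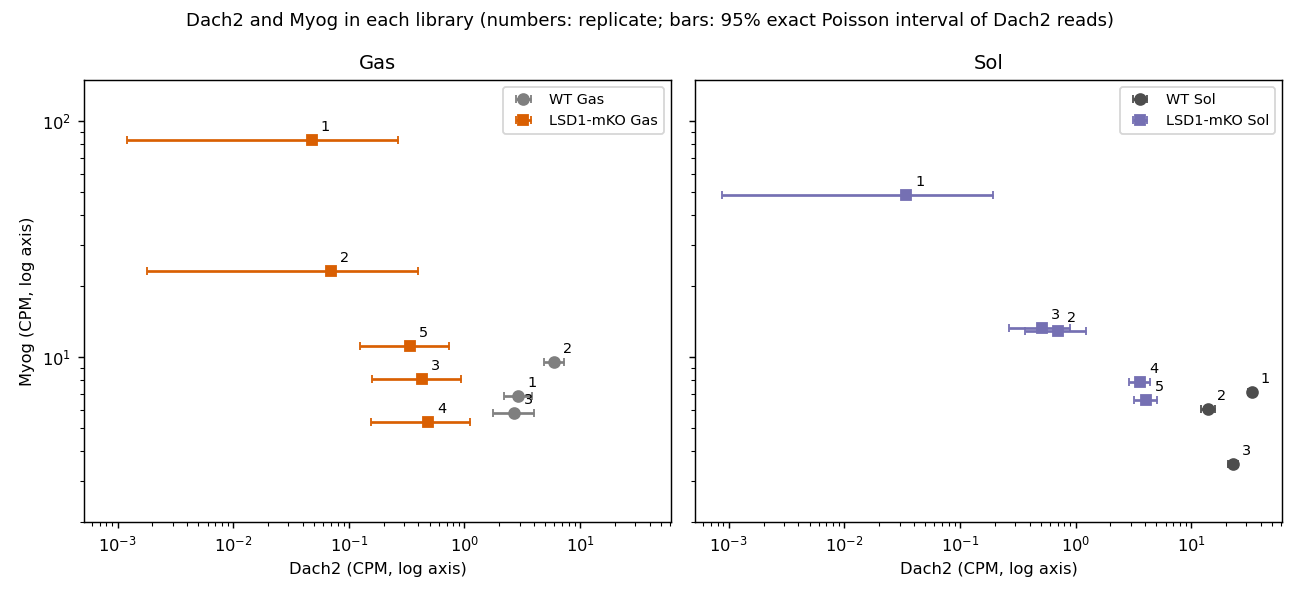
*Myog* against *Dach2* in CPM, both on log axes, with 1 point per library, Gas and Sol in separate panels and LSD1-mKO points numbered by replicate. Horizontal bars are exact Poisson 95% intervals of the *Dach2* reads. In both panels the LSD1-mKO points run from replicate 1 at the lowest *Dach2* and highest *Myog* to replicate 4 (Gas) or 5 (Sol) at the highest *Dach2* and lowest *Myog*.

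Markers of other cell types moved with some of these libraries. The summed Schwann cell markers (5 genes, none at 0) were 558 CPM in LSD1-mKO Gas 1 and 392 in LSD1-mKO Gas 2, against 107 to 222 in the other LSD1-mKO Gas libraries and 125 to 253 in WT Gas. The fibroblast markers (5 genes, none at 0) were 1606 CPM in LSD1-mKO Sol 1, against 490 to 1383 in the other LSD1-mKO Sol and 769 to 1130 in WT Sol. In that library *Dcn* was lower (387 CPM) than in any WT Sol library (524 to 679). The other genes of the sum, among them *Col3a1* at 746 CPM, were higher than in any WT Sol library. In Gas the fibroblast sums did not overlap between genotypes, with 1122 to 1532 CPM in WT and 783 to 924 CPM in LSD1-mKO. These sums were mostly *Dcn*, and each of the 5 genes taken alone overlapped between genotypes. The satellite cell markers (5 genes, none at 0 in a whole group), which would mark the precursors that express *Myod1* and *Myog* on activation, were 42.7 CPM in LSD1-mKO Gas 1 within a range of 39.8 to 53.5 in Gas, and 68.1 CPM in LSD1-mKO Sol 1, the highest of a range of 55.9 to 68.1 in Sol. In Gas the fast fiber markers summed to 114929 to 160332 CPM in WT and 77040 to 125003 CPM in LSD1-mKO. The neutrophil markers (4 genes, with *Camp* at 0 throughout WT Sol) were 123 CPM in LSD1-mKO Gas 3, the library with the highest *Runx1*, and 40.9 in WT Gas 3, against 1.68 to 8.51 in the other Gas and 0.728 to 7.21 in the Sol libraries. The macrophage markers (5 genes, none at 0) were 88.3 CPM in LSD1-mKO Sol 1, which had the highest *Myog* and *Runx1* in Sol, against 32.7 to 73.0 in the other LSD1-mKO Sol and 40.6 to 45.1 in WT Sol, and they ranged from 60.0 to 88.5 CPM in Gas. The part of these differences in the member values was not tested.

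*Myod1*, the myogenic factor of fast fibers and activated precursors, was read at 31.0, 43.3 and 12.9 CPM in WT Gas and at 42.8, 17.6, 10.5, 17.4 and 18.0 CPM in LSD1-mKO Gas. Replicate 1 of LSD1-mKO, the library with the highest *Myog*, was again the highest of its group. Its genotypes differed by -0.47 log2 units (SE 0.45). In Sol *Myod1* ranged from 7.42 to 23.1 CPM in WT and from 7.17 to 35.6 CPM in LSD1-mKO, with a log2 fold change of 0.20 (SE 0.46) that turned to -0.14 without LSD1-mKO Sol 3. *Myf6*, which encodes MRF4, the myogenic factor that prevails in adult fibers, ranged from 146 to 306 CPM in WT Gas and from 122 to 403 CPM in LSD1-mKO Gas. In Sol it ranged from 53.2 to 105 CPM in WT and from 31.8 to 138 CPM in LSD1-mKO. Its genotype log2 fold change was 0.06 (SE 0.39) in Gas and 0.37 (SE 0.38) in Sol, within the spread of the libraries in both.

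*Mef2c*, the MEF2 factor whose activity class IIa deacetylases restrain, was read at 446, 413 and 401 CPM in WT Gas and at 226, 432, 199, 328 and 333 CPM in LSD1-mKO Gas. Among the LSD1-mKO libraries 4 of 5 were below the lowest WT library and replicate 2 was within the WT range. The log2 fold change in Gas was -0.51 (SE 0.26). In Sol the WT libraries ranged from 616 to 937 CPM and the LSD1-mKO libraries from 253 to 1101 CPM, with a log2 fold change of -0.08 (SE 0.39). *Runx1*, a Runt-domain factor that protects denervated fibers from wasting, was read at 3.77, 5.76 and 2.91 CPM in WT Gas and at 7.48, 12.5, 26.9, 5.68 and 5.33 CPM in LSD1-mKO Gas. Its highest library was LSD1-mKO Gas 3, which also had the most neutrophil marker RNA (123 CPM), and the 2 lowest LSD1-mKO libraries lay within the WT range. Its log2 fold change was 1.43 (SE 0.54), and 0.85 without LSD1-mKO Gas 3. In Sol it was read at 7.12, 4.99 and 5.39 CPM in WT and 14.2, 8.03, 9.23, 6.88 and 6.09 CPM in LSD1-mKO, with a log2 fold change of 0.60 (SE 0.27) that was 0.38 without LSD1-mKO Sol 1.

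Per exon length, *Myf6* was the most abundant member in all 4 groups, with a mean of 169 ± 65.7 RPKM (SD, n = 3) in WT Gas and 61.1 ± 20.5 (n = 3) in WT Sol. *Mef2c* followed at 26.7 ± 1.51 RPKM in WT Gas and 47.6 ± 10.6 in WT Sol. In WT Gas the order then ran from *Myod1* (15.6 RPKM) and *Hdac5* (13.7), which overlapped, through *Myog* (4.95) and *Dach1* (1.44) to *Hdac4* (0.605), *Dach2* (0.391), *Runx1* (0.345) and *Hdac9* (0.222), whose neighbours overlapped. *Dach2* ranked 8 of the 10 in WT Gas, 6 in WT Sol with 2.37 ± 0.988 RPKM, and 10 in both LSD1-mKO groups with 0.0278 ± 0.0206 in Gas and 0.180 ± 0.191 in Sol (n = 5). *Myog* ranked 5 in both WT groups, 3 in LSD1-mKO Gas with 17.5 ± 21.7 RPKM and 4 in LSD1-mKO Sol with 12.0 ± 11.7 RPKM. In LSD1-mKO Gas its range overlapped that of its neighbours *Mef2c* and *Hdac5*.

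The muscle comparison, Sol against Gas within a genotype, was not the comparison that chose the members. It was tested by edgeR's quasi-likelihood test over 13749 genes in a model of all 16 libraries, with a gene called where its Benjamini-Hochberg adjusted p was under 0.05. *Hdac9* and *Dach2* were higher in Sol than in Gas and *Myf6* was lower, in WT and in LSD1-mKO muscle alike, and *Mef2c* was higher in Sol of LSD1-mKO. Of the 10 members 3 were called in WT, where 17.0% of all genes were called (8.75% higher and 8.25% lower), and 4 in LSD1-mKO, where 24.5% were called (12.9% higher and 11.6% lower). The Gas and Sol libraries carry separate label series, so muscle and preparation batch cannot be told apart, and these comparisons share their libraries with the genotype comparisons above.

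*Hdac9* rose from a mean of 3.25 ± 1.21 CPM (SD, n = 3) in WT Gas to 11.9 ± 7.73 CPM (n = 3) in WT Sol. The edgeR estimate in WT was 1.87 on the log2 scale (SE 0.50), with a Benjamini-Hochberg adjusted p = 0.0162. The WT groups overlapped through WT Sol 2, at 3.05 CPM. In LSD1-mKO it rose from 2.89 ± 0.225 CPM in Gas to 10.6 ± 3.93 CPM in Sol (n = 5) with no overlap, an edgeR estimate of 1.90 log2 units (SE 0.38, adjusted p = 0.00166). The call in WT was lost without WT Gas 1 (1.55), WT Sol 1 (1.501) or WT Sol 3 (1.66), and that in LSD1-mKO held without any 1 of the 16 libraries. *Hdac4* and *Hdac5* were not called, with log2 fold changes of 0.25 (SE 0.39) and 0.00 (SE 0.18) in WT and of -0.36 (SE 0.30) and 0.10 (SE 0.14) in LSD1-mKO. When the model also held the ribosomal protein level of each library, *Hdac4* was called lower in LSD1-mKO Sol (-0.98, edgeR adjusted p = 0.00619).

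*Dach2* was 5.94-fold higher in WT Sol than in WT Gas, with no overlap (log2 difference 2.57, SE 0.80, edgeR adjusted p = 0.0351), and 6.90-fold higher in LSD1-mKO Sol than in LSD1-mKO Gas, with overlap through LSD1-mKO Sol 1 (log2 difference 2.79, SE 0.89, adjusted p = 0.0299). Among all genes 30.4% did not overlap between the WT muscles and 20.9% between the LSD1-mKO muscles. LSD1-mKO Gas held only 1 to 6 reads of *Dach2* a library, so the fold in LSD1-mKO rests on few reads. *Dach2* did not pass the filter on low counts in a fit of the LSD1-mKO libraries alone. The WT call was lost without WT Gas 1 (2.38), WT Gas 3 (2.40), WT Sol 1 (2.22) or WT Sol 3 (2.60), and the LSD1-mKO call without LSD1-mKO Gas 1 (2.44), Gas 2 (2.56), Gas 5 (2.95), Sol 4 (2.30) or Sol 5 (2.25). When the model also held each library's ribosomal protein level, the log2 fold change of *Dach2* was 1.69 in WT and 2.23 in LSD1-mKO and neither was called. *Dach1* had log2 fold changes of 0.07 (SE 0.38) in WT and 0.34 (SE 0.30) in LSD1-mKO and was not called.

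*Myf6* fell from 213 ± 83.0 CPM in WT Gas to 77.2 ± 25.9 CPM in WT Sol (n = 3) with no overlap, by -1.51 on the log2 scale (SE 0.48, adjusted p = 0.0399), and from 232 ± 107 CPM in LSD1-mKO Gas to 101 ± 42.3 CPM in LSD1-mKO Sol (n = 5) with overlap, by -1.18 (SE 0.37, adjusted p = 0.0271), in the same edgeR fit. The WT call was lost without WT Gas 3 (-1.11), WT Sol 1 (-1.78), WT Sol 2 (-1.29), WT Sol 3 (-1.45) or LSD1-mKO Sol 4 (-1.497), and the LSD1-mKO call without LSD1-mKO Gas 2 (-0.90) or LSD1-mKO Sol 5 (-1.15). WT Gas 3 was also the WT Gas library of highest ribosomal protein level and of highest *Myf6*, at 306 CPM. *Mef2c* rose in LSD1-mKO from 304 ± 93.5 to 713 ± 353 CPM (log2 fold change 1.25, SE 0.32, edgeR adjusted p = 0.00854), a call that held without any 1 library. In WT its 3 Sol libraries all lay above its 3 Gas libraries, at 0.81 (SE 0.41), but it was not called. *Myog*, *Myod1* and *Runx1* had log2 fold changes between -0.80 and 0.47 in WT and between -0.53 and -0.11 in LSD1-mKO, and none of these was called.

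**Figure D4:**
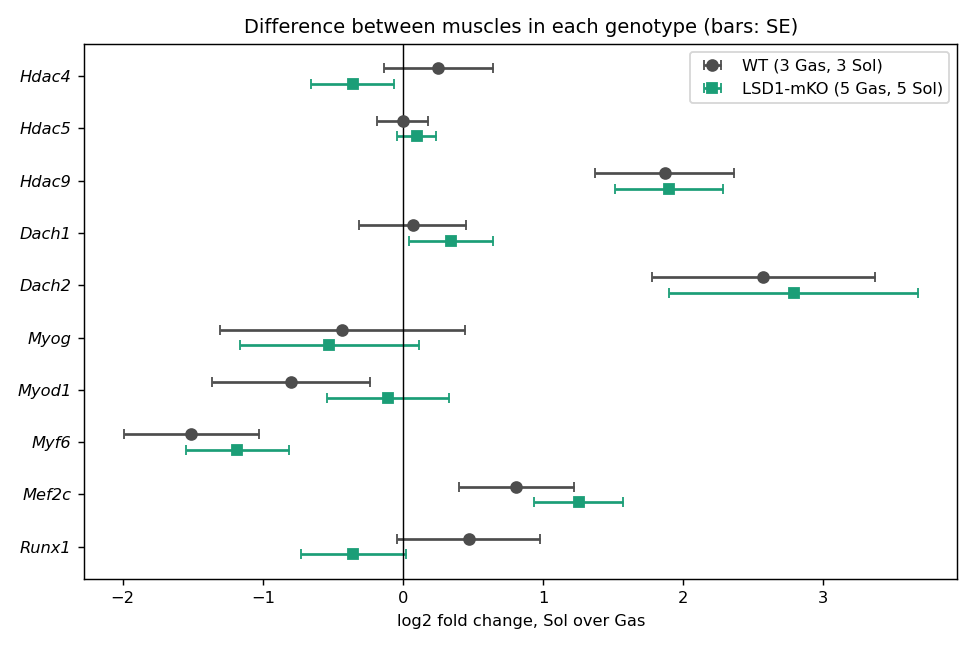
Fitted log2 fold change of Sol over Gas for the 10 genes in WT and in LSD1-mKO, with bars of 1 standard error on either side. The points do not mark which genes were called. *Hdac9* (1.87 and 1.90) and *Dach2* (2.57 and 2.79) lie above 0 in both genotypes and *Myf6* (-1.51 and -1.18) below 0 in both. *Mef2c* lies above 0 in both and was called in LSD1-mKO only.

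A difference of the genotype effects between the muscles was tested as an interaction in the same model. It is made of the genotype differences that entered the choice of the members, so its values for them support nothing about that choice. The interaction log2 fold change was 0.22 (SE 1.08) for *Dach2*, -0.09 (SE 1.09) for *Myog*, -0.82 (SE 0.63) for *Runx1* and 0.69 (SE 0.71) for *Myod1*, and lay between -0.61 and 0.44 for the others. No member was called by edgeR (adjusted p between 0.987 and 1.00), 0 had an unadjusted p under 0.05, against 4.88% of all genes, and DESeq2 called 0. Over all genes edgeR called 0 of 13749 and DESeq2 21. The large standard errors of *Dach2* and *Myog* set how small a difference between the muscles could be detected for these genes, and a missed threshold does not show equal effects.

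The genes around the axis were read from 8 lists of 66 genes in all. The lists were chosen with earlier results of these data known, so their genotype values and calls are a description and not independent support. In Gas edgeR's quasi-likelihood test at a Benjamini-Hochberg adjusted p under 0.05 called 0 of the 62 tested between genotypes, where 0.0307% of 13040 genes were called, with 9 at an unadjusted p under 0.05 (9.06% of all genes), while DESeq2 called 4 and edgeR's exact test 3. In Sol it called 3 of 63, all higher in LSD1-mKO: *Chrnb1* and *Chrnd*, which encode subunits of the muscle acetylcholine receptor, and *Camk2b*, a calcium/calmodulin-dependent kinase of the family that exports class IIa deacetylases from the nucleus. DESeq2 and the exact test each called 9 in Sol. Over the 13342 genes tested in Sol 0.967% were called, 0.787% higher and 0.180% lower, and 15.5% had an unadjusted p under 0.05.

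The list of acetylcholine receptor and synaptic genes, the best known targets of myogenin, had positive log2 fold changes for 9 of its 9 tested members in Gas and for 9 of 10 in Sol, with medians of 0.81 and 0.79. Over all genes tested, 51.2% were positive in Gas and 48.2% in Sol, with medians of 0.01 and -0.01. Since the list was chosen with earlier results known, its share of positive values is not a test. *Chrnb1* was read at 27.5, 21.5 and 21.3 CPM in WT Sol and at 69.8, 77.1, 71.6, 81.2 and 72.3 CPM in LSD1-mKO Sol. The groups were far apart (log2 difference 1.65, SE 0.14, edgeR adjusted p = 0.000564), and the call held without any 1 library. In Gas it was read at 26.8, 35.8 and 21.9 CPM in WT and 60.5, 70.8, 54.4, 50.8 and 42.8 CPM in LSD1-mKO. It was not called there (log2 fold change 0.95, SE 0.21). *Chrnd* was read at 6.69, 3.68 and 6.03 CPM in WT Sol and between 10.1 and 15.6 CPM in LSD1-mKO Sol (log2 fold change 1.07, SE 0.22, edgeR adjusted p = 0.0490). Its call held without LSD1-mKO Sol 5 and was lost without any of the other 7 libraries, WT Sol 1 to 3 and LSD1-mKO Sol 1 to 4 (0.88 to 1.25). It was also lost with RLE scaling (1.07) and in the fit of all 16 libraries (1.08).

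*Chrna1*, the agonist-binding subunit of the receptor, was singled out after its values were seen. It was read at 18.2, 18.1 and 18.9 CPM in WT Gas and at 217, 145, 76.4, 76.1 and 94.4 CPM in LSD1-mKO Gas. In Sol it was read at 51.3, 52.0 and 54.6 CPM in WT and at 171, 109, 127, 71.7 and 96.9 CPM in LSD1-mKO. The WT libraries of each muscle agreed closely. By edgeR the difference was 2.68 log2 units (SE 0.38, adjusted p = 0.0551) in Gas and 1.11 (SE 0.24, adjusted p = 0.0544) in Sol, which just missed the threshold in both. It was called in Gas without LSD1-mKO Gas 1 (2.37) and in Sol without LSD1-mKO Sol 1 (0.95), 4 (1.25) or 5 (1.17). Replicate 1, the LSD1-mKO library with the highest *Myog* in each muscle, also had the highest *Chrna1* in each.

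*Chrng*, the subunit of the fetal receptor that reappears after denervation, was likewise chosen after its values were seen. It had 2, 1 and 2 reads in WT Sol (0.107, 0.0694 and 0.116 CPM), and was read at 5.44, 0.709, 1.75, 0.529 and 0.936 CPM in LSD1-mKO Sol. No fold is given against so few reads, and in Gas it did not pass the filter on low counts. *Camk2b* was read at 167, 153 and 160 CPM in WT Sol and 300, 312, 288, 254 and 290 CPM in LSD1-mKO Sol (log2 fold change 0.84, SE 0.13, edgeR adjusted p = 0.0155), and its call was lost without WT Sol 1 (0.87), WT Sol 3 (0.85) or LSD1-mKO Sol 2 (0.81). In Gas its groups overlapped.

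The embryonic and fetal contractile genes, which mark immature or denervated fibers, had positive log2 fold changes for 5 of 5 in Sol (median 0.92) and 3 of 5 in Gas (median 0.45). Among the 8 atrophy genes, which include *Trim63* and *Fbxo32*, 5 were positive in Gas (median 0.08) and 2 in Sol (median -0.32). Medians of the other 5 lists, the partners and kinases of class IIa deacetylases, the sine oculis and Eya partners of Dachshund, the partners and inhibitors of the myogenic factors and the relatives of Runx, lay between -0.32 and 0.23 in Gas and between -0.17 and 0.12 in Sol. Between genotypes, edgeR's exact test and DESeq2 each called *Myh8* of the embryonic list in Gas. In Sol both called *Myh3*, *Myh8* and *Tnnt2* of the embryonic list, *Ankrd1* of the atrophy list and *Camk2b*. With the quasi-likelihood test, *Camk2b* in Sol was the only call among these 7 lists. Members at an unadjusted p under 0.05 numbered 1 in Gas and 4 in Sol for the embryonic genes, 0 and 3 for the atrophy genes, and 3 and 2 for the other 5 lists together.

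**Figure D5:**
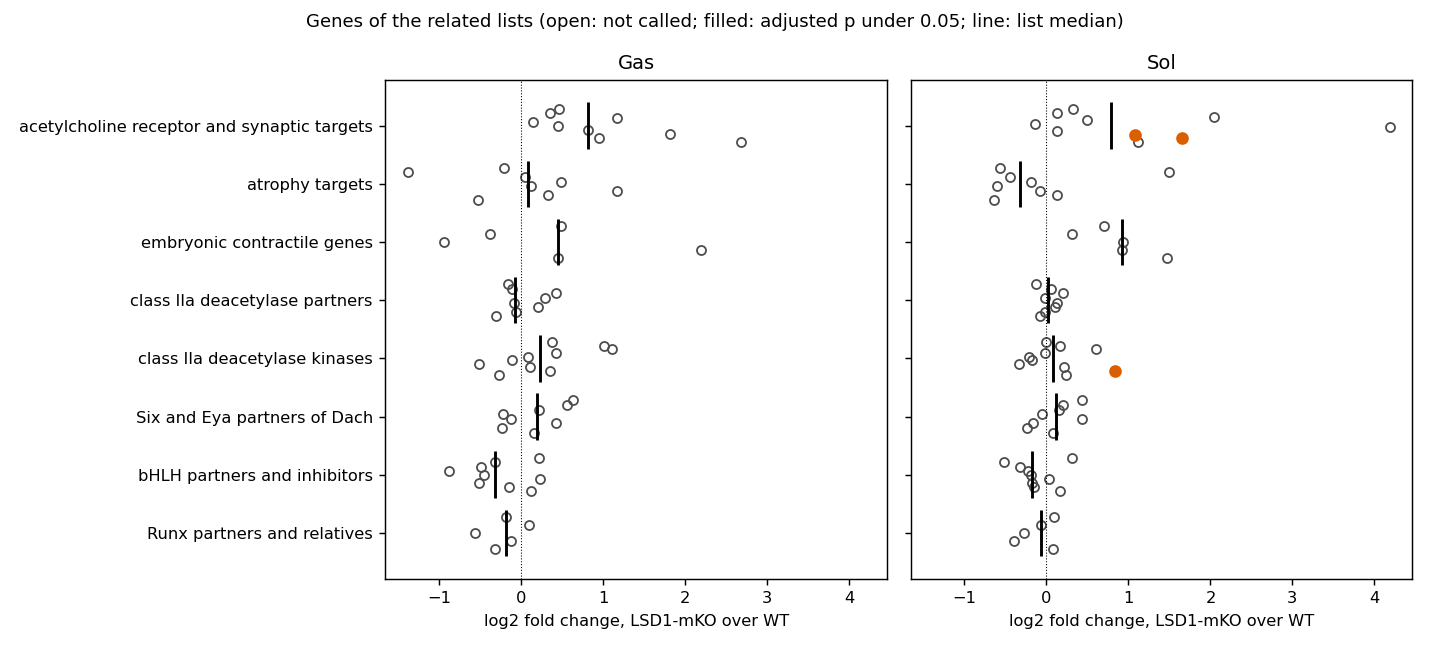
Fitted log2 fold change of LSD1-mKO over WT for each gene of the 8 lists around the axis, in Gas and in Sol, with 1 point per gene and a line at the list median. The acetylcholine receptor and synaptic genes have the highest median in Gas, 0.81, and the embryonic contractile genes the highest in Sol, 0.92.

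Between the muscles, 16 of the 63 genes tested from these lists were called in WT (7 higher in Sol and 9 lower) and 25 in LSD1-mKO (12 higher and 13 lower). In WT the receptor and synaptic genes were called higher in Sol for 4 of 10, with the largest differences for *Chrnd* (2.20, SE 0.44, edgeR adjusted p = 0.00264), *Chrna1* (1.49, SE 0.35, adjusted p = 0.00834) and *Ncam1* (1.46, SE 0.24, adjusted p = 0.000542), the last a cell adhesion molecule of the synapse. In LSD1-mKO 6 were called higher and 2 lower, among them *Chrng* (2.50, from only 0 to 10 reads a library in LSD1-mKO Gas) and *Ncam1* (1.82). *Chrna1* did not differ beyond its spread in LSD1-mKO (-0.06, SE 0.26), and its interaction log2 fold change was -1.55 (SE 0.44, edgeR adjusted p = 0.667). The *Chrng* call was lost without LSD1-mKO Sol 1 (1.53). When the model also held each library's ribosomal protein level, *Chrnd* was not called in WT (1.22).

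The ubiquitin ligases *Trim63* (MuRF1) and *Fbxo32* (atrogin-1) and the growth arrest gene *Gadd45a* were called lower in Sol in both genotypes. *Trim63* averaged 3561 ± 890 CPM in WT Gas and 380 ± 313 CPM in WT Sol (SD, n = 3; log2 fold change -3.25, SE 0.63, edgeR adjusted p = 0.00200) and differed by -3.35 in LSD1-mKO. *Gadd45a* differed by -2.70 in WT and -3.92 in LSD1-mKO, and *Fbxo32* by -1.81 and -1.99. The WT call of *Gadd45a* was lost without WT Gas 3 (-2.10), WT Sol 1 (-2.38) or WT Sol 3 (-2.46) and that of *Fbxo32* without WT Sol 1 (-1.62) or WT Sol 3 (-1.85). With the ribosomal protein level in the model, neither *Gadd45a* (-1.90) nor *Fbxo32* (-1.94) was called in WT. Of the contractile genes, embryonic myosin *Myh3* was higher in Sol (3.13 in WT, 4.15 in LSD1-mKO), as was *Tnnt2* (1.31 and 1.52), and cardiac actin *Actc1* was lower (-4.34 and -3.62). The WT call of *Tnnt2* was kept only without LSD1-mKO Gas 1, 3, 4 or 5 and lost without each of the other 12 libraries (1.10 to 1.47).

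Of the deacetylase kinases, *Camk2a* was lower in Sol (-2.11 in WT, -1.58 in LSD1-mKO), as was *Camk2g* (-0.95 and -0.76), and *Camk2b* was higher in LSD1-mKO (1.00). The homeobox gene *Six2* was lower in Sol (-5.01 and -5.00), as was *Eya4* (-2.00 and -2.20), a coactivator of sine oculis proteins. *Cbfb*, the partner subunit of Runx factors, was lower in Sol (-1.67 and -1.27), and *Tle1*, a Groucho corepressor, was lower in LSD1-mKO (-0.94). *Tcf12*, an E protein that pairs with myogenic factors, was higher in Sol (0.84 and 0.65). The corepressor *Ncor1* (0.44) was higher and *Gps2* (-0.60), a subunit of the same complex, lower in LSD1-mKO Sol, while in WT edgeR and DESeq2 each called 0 of that list and 1 gene had an unadjusted p under 0.05. Calls were lost without single libraries for *Tcf12* in WT (WT Gas 1, WT Gas 3, WT Sol 1, WT Sol 3; 0.57 to 0.92) and in LSD1-mKO (LSD1-mKO Gas 1, 4, 5 and Sol 2, 3, 4; 0.56 to 0.62), and for *Gps2* (LSD1-mKO Gas 1, 5 and Sol 1, 2, 4, 5; -0.64 to -0.46). The *Gps2* call was also lost with the replicate number as a block (-0.58, edgeR adjusted p = 0.0598). With the ribosomal protein level in the model, *Tcf12* was called in neither WT (0.06) nor LSD1-mKO (0.19). In LSD1-mKO *Gps2* (-0.12) and *Ncor1* (0.45) were then not called either. The call of *Ncor1* was kept only without WT Gas 1, 2 or 3, LSD1-mKO Gas 3 or WT Sol 2, and lost without each of the other 11 libraries (0.39 to 0.45).

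The genes with the pattern most like that of *Dach2* were sought among 12295 genes by the root mean square (RMS) difference of centred log2 CPM over the 16 libraries. The nearest were *4933415F23Rik* (1.06), *Ostn* (1.08), *2310020H05Rik* (1.46), *Dmd* (1.47) and *4632428C04Rik* (1.48), against a median of 2.49 over all genes. *Ostn*, which encodes the secreted peptide osteocrin, averaged 5.91 ± 0.985 CPM in WT Gas, 1.06 ± 0.972 in LSD1-mKO Gas, 30.3 ± 4.99 in WT Sol and 5.93 ± 4.38 in LSD1-mKO Sol. *Dmd*, the dystrophin gene, averaged 86.7 ± 31.8, 41.6 ± 29.0, 183 ± 77.6 and 90.8 ± 73.3 CPM in the same groups. Like *Dach2*, both averaged less in LSD1-mKO and more in Sol, which their choice by likeness to *Dach2* favours. A gene of equal level in all libraries would score 2.44.

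Nearest to *Myog* were *Paqr7* (0.60), *Clu* (0.64), *Gm13889* (0.66), *Nup210* (0.70) and *Klhl40* (0.71), against a median of 1.21. *Klhl40*, which encodes a sarcomeric protein of the thin filament, averaged 230 ± 92.6 CPM in WT Gas, 340 ± 166 in LSD1-mKO Gas, 179 ± 21.8 in WT Sol and 534 ± 281 in LSD1-mKO Sol. *Clu*, which encodes the extracellular chaperone clusterin, averaged 61.1 ± 11.8, 156 ± 81.1, 61.4 ± 11.9 and 112 ± 51.2 CPM. All 5 had their highest group mean in an LSD1-mKO group, which their choice by likeness to *Myog* favours. A gene of equal level in all libraries would score 1.15. These are the genes closest in level pattern by that measure, and nothing about shared control was tested.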

How the data were processed

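Poly(A) RNA of gastrocnemius and soleus was sequenced as 75-base single-end reads. Per the study's methods and the file headers, the authors aligned reads to mm10 with STAR and made the deposited count of reads per gene with featureCounts 1.5.2 without regard to strand, so reads of overlapping antisense genes cannot be told apart. Their fold change tables (log2 fold change, mean log2 CPM, p and false discovery rate) were not used.

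The deposited counts were tested in R 4.3.3 with edgeR 4.0.16 (filterByExpr with a minimum count of 10, TMM scaling, quasi-likelihood F-test, two-sided, Benjamini-Hochberg adjustment over all genes tested, threshold 0.05). Genotypes were compared within each muscle (8 libraries). Muscles and the interaction were fitted on all 16 libraries with 4 group means. CPM values use 1 TMM scale over the 16 libraries. RPKM divides them by the joint length of all exons of the gene in GENCODE M21, which may differ from the authors' annotation. Ranks and shares between genes depend on that length, which can exceed the length of the transcripts present. Libraries held 10130415 to 24576377 assigned reads, so 3 reads correspond to 0.122 to 0.296 CPM. Similarity used a prior count of 2 and genes averaging at least 1 CPM.

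Alternatives were RLE scaling, no filter, DESeq2 1.42.0, edgeR's exact test, a replicate block, a ribosomal protein covariate, 1 fit over all libraries or 1 genotype, and leaving out each library. Leaving out the libraries of high ribosomal protein level was chosen after seeing the data. All 10 members were named, with *Kdm1a* as the check of the genotype. From the lists, genes called between genotypes were named, as were up to 3 called genes per list and muscle comparison by absolute log2 fold change, and the 5 genes nearest to *Dach2* and to *Myog*. A gene of the lists that this rule names is not reported here. The members and lists were chosen with earlier results of these data known.

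Replicate numbers paired the Gas and Sol libraries of LSD1-mKO, where deviations from the group means of same-numbered libraries correlated at 0.213 to 0.362 over genes in all 5 pairs, while other pairs lay between -0.281 and 0.164. In WT they did not (-0.522 to 0.120), nor did they pair the genotypes within a muscle (-0.161 to 0.307 in Gas and -0.00759 to 0.128 in Sol). The scripts were tested on simulated counts.

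Promoter windows were found for 8 of the 10 members in RefSeq on GRCm38.p6 (13 windows). *Myod1* and *Myf6* had none.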

Additional observations from a re-analysis of the deposited data

Results flagged for a closer look

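In each LSD1-mKO group of 5 libraries, the gap between the highest or lowest library and its nearest neighbour was divided by the range of the group for each of the 10 genes. Of 20 combinations of gene and group, 5 had a gap above the critical share of 0.710. About 1 in 20 would pass it if the values were normal and independent. CPM values need not be normal, and genes read in the same library are not independent, so the count of 5 is not a test.

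*Myog* in LSD1-mKO Gas 1 was at 83.0 CPM with its neighbour at 23.3 CPM (gap share 0.768), and in LSD1-mKO Sol 1 at 48.8 CPM with its neighbour at 13.3 CPM (0.841). *Myod1* in LSD1-mKO Gas 1 was at 42.8 CPM with its neighbour at 18.0 CPM (0.768). *Hdac4* in LSD1-mKO Sol 3 was at 18.8 CPM with its neighbour at 12.6 CPM (0.805), and *Hdac5* in the same library was at 150 CPM with its neighbour at 113 CPM (0.871). The highest *Myog* thus fell in the library numbered 1 of LSD1-mKO in both muscles, and both deacetylases were set apart in the same library. Same-numbered LSD1-mKO libraries deviated together, so the *Myog* peaks in Gas and Sol may not be independent.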

How the results depend on the processing

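The genotype contrasts entered the choice of the members, so their counts here are a description and support nothing. Members called between genotypes in Gas numbered 0 in the analysis reported and 1, *Dach2*, with no filter on low counts, with DESeq2 and with edgeR's exact test. Over all genes these called 10, 132 and 104, against 4, and the fit of all 16 libraries called 62. In Sol the 1 member called, *Dach2*, was lost without WT Sol 2, the Sol library of high ribosomal protein level. It was likewise lost without WT Sol 1, WT Sol 3, LSD1-mKO Sol 2 or LSD1-mKO Sol 3. Between the WT muscles 3 members were called, against 0 with the ribosomal protein covariate and 1, *Hdac9*, without the libraries of high ribosomal protein level. The cause of these shifts was not tested. In Sol DESeq2 called 605 genes, the exact test 560, no filter 336, the ribosomal protein covariate 289 and the fit without the libraries of high ribosomal protein level 23, against 129. With 1 library left out, members called ranged from 0 to 0 between genotypes in Gas, 0 to 1 in Sol, 0 to 3 between the WT muscles, 2 to 4 between the LSD1-mKO muscles and 0 to 0 for the interaction.

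Counts over all genes moved with single libraries too, with 1 to 7 genes called in Gas, 11 to 228 in Sol and 1132 to 2839 between the WT muscles (2337 with all libraries), and the fit of WT alone called 1011. For the interaction DESeq2 called 21 genes and the replicate block 1, against 0.

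The replicate block, in which only numbers 1 to 3 carry both genotypes, gave 2 members in Sol, *Dach2* (-5.92) and *Myog*, and 412 genes. Since the numbers did not pair the genotypes, this is given only here. Between the muscles it left the 4 members called in LSD1-mKO, where the numbers paired the libraries, and *Dach2* and *Myf6* but not *Hdac9* (1.62) in WT, and it changed no other call among the members. Of the other genes named, *Kdm1a* in Gas was not called under the block (-1.51), *Chrna1* in Sol was (1.32), and *Gps2* is given beside its value. With 1 library left out, *Kdm1a* in Gas was called in only 2 of 8 fits (-1.65 to -1.44).

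Other calls lost were *Dach2* in WT with DESeq2 (2.57) and without the libraries of high ribosomal protein level (2.67), *Myf6* in WT without them (-0.90), *Dach2* in LSD1-mKO without them (2.95), and *Hdac9* in the fit of WT alone (1.85). In the fit of LSD1-mKO alone *Dach2* did not pass the filter on low counts. *Hdac4* was called lower in LSD1-mKO Sol than Gas with the covariate (-0.98), where *Myf6* was not (-1.09). No called member changed direction under any of these settings. Depth limits *Dach2* in LSD1-mKO Gas, at 1 to 6 reads a library.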
